A study of Mus musculus with 6 samples.

Results

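Cornified envelope crosslinkers and plakins are the enzymes and scaffold proteins that build the protein shell of a terminally differentiating squamous cell. The set described here held 10 genes: the transglutaminases *Tgm1*, *Tgm2*, *Tgm3* and *Tgm5*, the plakins *Evpl* and *Ppl*, and the secreted or envelope proteins *Cnfn*, *Sbsn*, *Dmkn* and *Krtdap*, all of which lie outside the epidermal differentiation complex. They were chosen by name and function, with earlier results of these data known. Each was read from 1 probe set that names that gene alone, so that 10 of the 19938 genes measured belong to the set. Expression was measured with microarrays in esophageal epithelium of 6 mice aged 3 months on a mixed genetic background. The 3 animals labelled mutant carried *Klf4* flanked by loxP sites on both copies together with the ED-L2-Cre transgene, which is driven by an Epstein-Barr virus promoter active in squamous epithelium of the tongue, esophagus and forestomach. The 3 animals labelled control carried the same floxed gene without Cre and were littermates of the same sex. Each group held 1 male (replicate 1) and 2 females (replicates 2 and 3), and each array was 1 animal.

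In stratified squamous epithelium such as that of the mouse esophagus, cells leaving the basal layer deposit proteins beneath the plasma membrane and join them into an insoluble envelope. Transglutaminases are calcium-dependent enzymes that form covalent bonds between glutamine and lysine side chains of those proteins. Envoplakin and periplakin, the products of *Evpl* and *Ppl*, are cytoskeletal linkers that bind each other and are among the first proteins laid down as the scaffold of the envelope. Klf4 is a zinc finger transcription factor of differentiating epithelial cells.

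The targeted gene was read first. *Klf4* was at 9.75, 10.15 and 10.06 (log2 expression) in animals labelled control and at 10.28, 10.50 and 10.28 in those labelled mutant, so its signal was not lower there (adjusted p = 0.314), and the position of its probes relative to the deleted part is not given in the sources used here. Directions therefore rest on the labels throughout. The test was limma, with p-values adjusted by Benjamini and Hochberg over the whole table and called under 0.05, and 207 of 19938 genes passed it. That is 1.04% of genes in either direction, 0.366% with higher and 0.672% with lower values in animals labelled mutant. Markers of stratified squamous epithelium had means of 11.67 to 11.80 per array in the group labelled control and 11.72 to 11.93 in the other, and none of the 10 markers passed, so the markers of the labelled tissue were present on every array. The samples also carried skeletal muscle signal that varied widely within both groups: the mean of 10 muscle genes lay between 6.06 and 10.31 in animals labelled control and between 6.06 and 8.86 in those labelled mutant. Replicates were separate animals, and with 3 of them per group their number limits the precision of every difference.

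**Figure D1:**
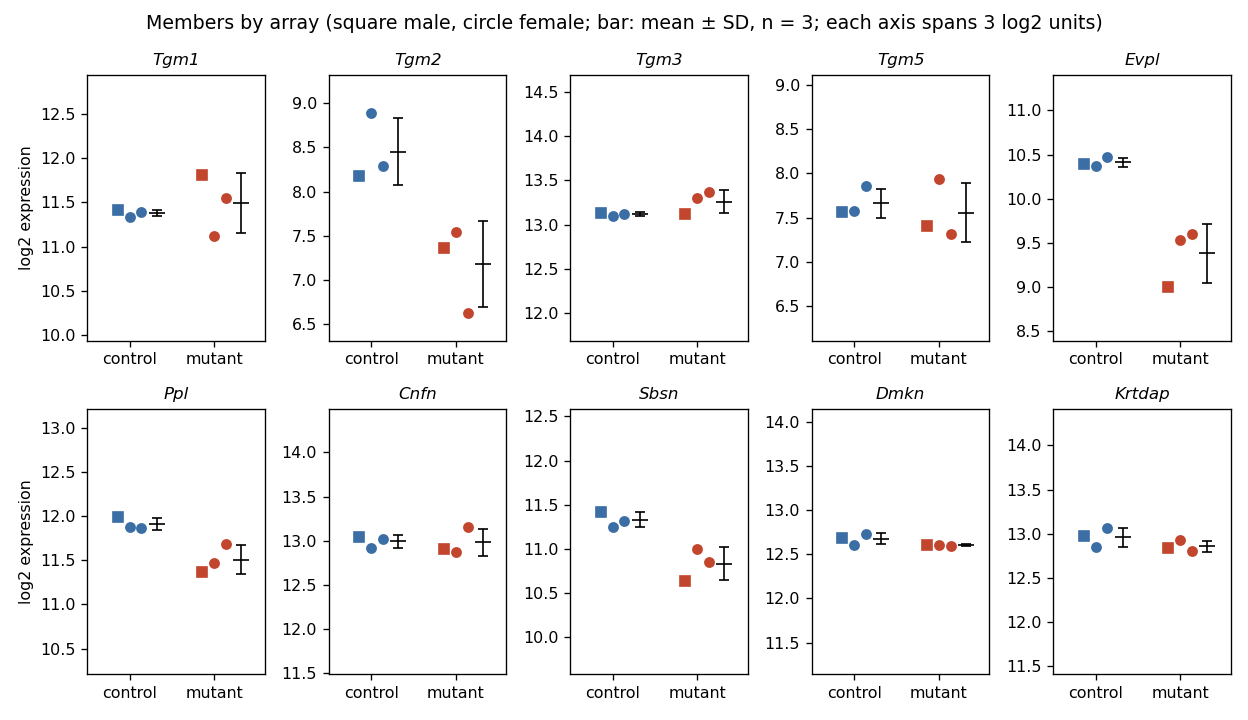
Log2 expression of each of the 10 genes on every array (vertical axes, each spanning 3 log2 units) for the groups labelled control and mutant; squares are males, circles females, and bars give the mean ± SD of 3 arrays. The points of the 2 groups are separate for *Tgm2*, *Evpl*, *Ppl* and *Sbsn*, and overlap for the other 6 genes.

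Among the 10 genes, *Evpl* fell and was the only one to pass the test, while 9 did not pass. The groups did not overlap for 4 genes, *Evpl*, *Tgm2*, *Sbsn* and *Ppl*, all of them lower in animals labelled mutant. Over all genes, groups were separate for 18.1%, and separate with the lower values in animals labelled mutant for 8%. The same 4 genes were those with an unadjusted p under 0.05, as were 12.4% of all genes. The median difference of the 10 genes was -0.11 on the log2 scale, beside 0.022 over all genes, and the median absolute difference was 0.13 beside 0.11.

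Both plakins had lower values in animals labelled mutant, and 1 of them passed. *Evpl* read 10.39, 10.37 and 10.47 in animals labelled control and 9.00, 9.54 and 9.60 in those labelled mutant. The 3 control values lay within 0.10 of each other, and the highest value labelled mutant was well below the lowest control, with the male animal lowest. The means were 10.41 ± 0.055 and 9.38 ± 0.33 (SD, n = 3 each), a difference of -1.03 ± 0.16 (log2, SE), which is 2.04-fold lower (limma adjusted p = 0.0370). This difference was lower than that of all but 0.908% of genes, and *Evpl* ranked 160 by p. With 1 array left out, the call was kept without mutant 1 (adjusted p = 0.0372). It was lost without control 1, control 2, control 3, mutant 2 or mutant 3, with adjusted p between 0.0603 and 0.167. The difference stayed between -1.14 and -0.84 in these fits, in which 44 to 193 genes passed over the whole table. Fitting the replicate number as a block also ended the call (adjusted p = 0.0669), though same-numbered arrays did not deviate together. The call was also lost in the females alone (difference -0.85, adjusted p = 0.0723). The mean of fibroblast and muscle markers as a covariate ended it too (-1.11, adjusted p = 0.0695). With the fibroblast mean alone it was lost as well (-0.84, adjusted p = 0.9997), and only 7 of 19938 genes passed. All 15 measured fibroblast markers were lower in the same animals, with values given beside *Tgm2*. Their means did not overlap between the groups, so that fit cannot tell their part in the *Evpl* difference from genotype.

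*Ppl*, whose product pairs with envoplakin, read 11.99, 11.88 and 11.87 in animals labelled control and 11.36, 11.46 and 11.69 in those labelled mutant. The groups were separate but closer than for *Evpl*, and the male labelled mutant was again the lowest. The difference was -0.40 ± 0.11 (log2, SE; 95% interval -0.67 to -0.14) and did not pass (adjusted p = 0.175). Set against *Ppl* on the same array, *Evpl* was lower by a further 0.62 on the log2 scale in the group labelled mutant (a log ratio difference of -0.62), and the log ratios of the 2 groups did not overlap. The two-sided exact permutation test gave p = 0.1, the smallest that 3 against 3 arrays allow, and 0.2 after adjustment over the 8 pairs of genes compared, so the unequal size of the 2 plakin differences was not established.

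**Figure D2:**
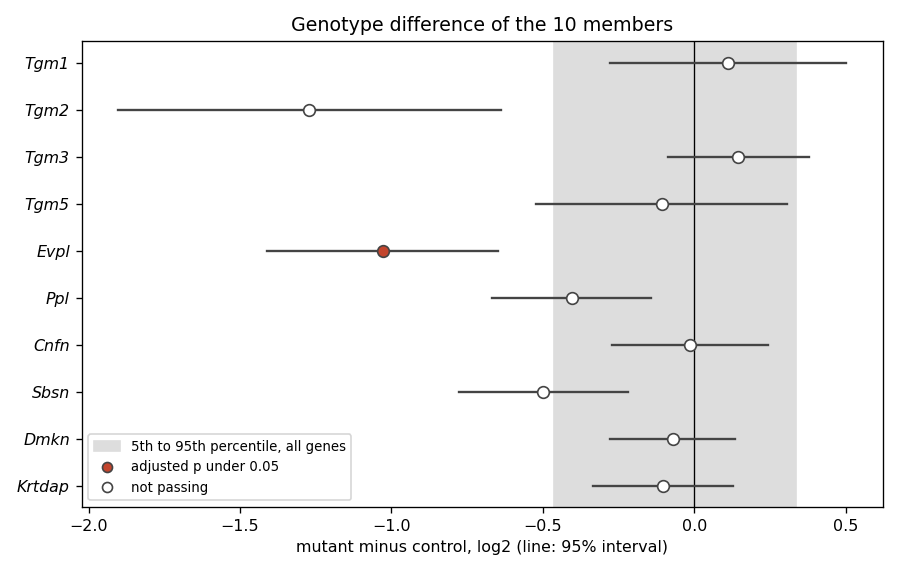
Difference of means, arrays labelled mutant minus arrays labelled control (horizontal axis, log2), for each of the 10 genes, with 95% intervals as lines and the 5th to 95th percentile of all genes as a grey band. *Evpl* at -1.03 is the only filled point, *Tgm2* at -1.27 has the widest interval, and the intervals of the 6 genes other than *Evpl*, *Tgm2*, *Ppl* and *Sbsn* cross 0.

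Of the 4 transglutaminases, none passed, and *Tgm2* had the difference farthest below 0 of the whole set. *Tgm2* encodes tissue transglutaminase, a widely expressed enzyme that also crosslinks extracellular matrix and is abundant in endothelial cells and fibroblasts. It read 8.18, 8.88 and 8.29 in animals labelled control and 7.37, 7.54 and 6.63 in those labelled mutant. The groups were separate, with a broad spread inside each, and the lowest value was that of mutant 3. The difference was -1.27 ± 0.27 (log2, SE; 95% interval -1.90 to -0.64), a 2.41-fold lower mean that did not pass (adjusted p = 0.0932), and it passed in none of the 19 alternatives tried.

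Markers of stromal cells were read beside *Tgm2*. All 15 measured fibroblast and lamina propria markers had lower means in animals labelled mutant (median -1.10), and 3 passed. The mean of that list was 7.91 to 8.60 per array in the group labelled control and 7.28 to 7.45 in the other, with no marker under the dim limit of 4.72 (the 40th percentile of gene means). All 8 smooth muscle markers were also lower (median -0.85, none passing), at 7.88 to 8.58 against 6.87 to 7.66. The 10 endothelial markers had a median of -0.015 and means of 5.29 to 5.62 against 5.39 to 5.55, with 2 under the dim limit. With the fibroblast and muscle mean as a covariate, the *Tgm2* difference was -0.84 (adjusted p = 0.203), and with the fibroblast mean alone it was -0.67. The fibroblast means of the groups did not overlap, so the fit with that covariate cannot tell stroma from genotype. In a tissue sample, fewer cells of a type and less RNA per cell cannot be told apart. The part of stroma in the *Tgm2* values was not otherwise tested.

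**Figure D3:**
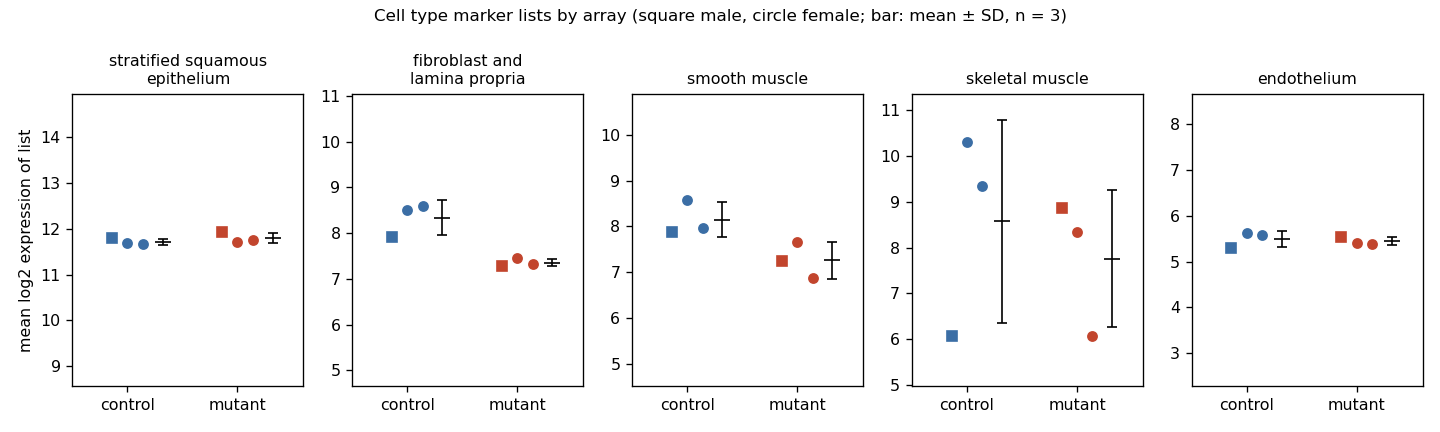
Mean log2 expression of 5 cell type marker lists on each array (vertical axes, each of the same span) for the groups labelled control and mutant; squares are males, circles females, bars the mean ± SD of 3 arrays. Fibroblast means are 7.91 to 8.60 against 7.28 to 7.45, while squamous means (11.67 to 11.80 against 11.72 to 11.93) and endothelial means overlap and skeletal muscle spreads from 6.06 to 10.31.

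The other 3 transglutaminases gave small differences. *Tgm1* encodes the membrane-anchored enzyme whose loss causes lamellar ichthyosis in people. It read 11.41, 11.34 and 11.39 in animals labelled control and 11.81, 11.12 and 11.55 in those labelled mutant. The 3 values labelled mutant lay on both sides of the tight control values, and the difference was 0.11 ± 0.17 (log2, SE; 95% interval -0.28 to 0.50; adjusted p = 0.855). Its sign turned without mutant 1, to -0.045.

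*Tgm3* encodes a cytosolic enzyme of late differentiation and the hair follicle that is activated by proteolysis. It read 13.13, 13.09 and 13.12 against 13.12, 13.30 and 13.37, with both females labelled mutant above every control and the male inside the control range. The difference was 0.15 ± 0.10 (95% interval -0.088 to 0.38; adjusted p = 0.647).

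*Tgm5* encodes the enzyme that is mutated in acral peeling skin syndrome. It read 7.56, 7.57 and 7.85 against 7.41, 7.94 and 7.32, with overlapping groups, and differed by -0.11 ± 0.18 (95% interval -0.52 to 0.31; adjusted p = 0.872). On the same array, *Tgm1* relative to *Tgm2* was higher by 1.38 in the group labelled mutant, with separate groups (exact permutation p = 0.1; 0.2 over the 8 pairs). *Tgm1* relative to *Tgm3* and to *Tgm5* differed by -0.034 and 0.22 (exact permutation p = 0.7 and 0.6).

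The 4 secreted or envelope proteins include 3 that are encoded side by side, in the order *Sbsn*, *Dmkn*, *Krtdap*, and of these *Sbsn* alone had separate groups. *Sbsn* encodes suprabasin, a secreted protein of suprabasal keratinocytes. It read 11.42, 11.25 and 11.32 in animals labelled control and 10.63, 11.004 and 10.85 in those labelled mutant. All 3 values labelled mutant were below all 3 controls, and the male was lowest. The difference was -0.50 ± 0.12 (log2, SE; 95% interval -0.78 to -0.22) and did not pass (adjusted p = 0.124).

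*Dmkn* encodes dermokine, a secreted protein of the same layers, and its values were the most even of the set in the group labelled mutant. They were 12.69, 12.61 and 12.73 against 12.61, 12.61 and 12.60, a difference of -0.071 ± 0.088 (95% interval -0.28 to 0.13; adjusted p = 0.815). *Krtdap*, named for its link to keratinocyte differentiation, read 12.97, 12.84 and 13.06 against 12.84, 12.92 and 12.80, with overlapping groups and a difference of -0.10 ± 0.099 (95% interval -0.33 to 0.13; adjusted p = 0.753). Within arrays, *Sbsn* relative to *Dmkn* was lower by a log ratio difference of -0.43 in the group labelled mutant, with separate groups (exact permutation p = 0.1; 0.2 over the 8 pairs). An unequal difference of the 2 genes was thus not established. *Dmkn* is bright enough that the array can compress its difference, which was not tested. *Krtdap* relative to *Dmkn* differed by -0.032 (exact permutation p = 0.5).

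The 250 bases before the start of these 3 neighbours are shown because the genes lie side by side and code for secreted proteins of the same layers. They are RefSeq sequences of build GRCm38.p6, all on the plus strand, at chr7:30751221-30751470 for *Sbsn*, chr7:30763506-30763755 for the first of the 3 listed starts of *Dmkn* and chr7:30787655-30787904 for *Krtdap*. Capitals mark CACCC, the core of the element that Kruppel-like factors bind, or its reverse complement GGGTG, and TGACTCA, the element of AP-1 factors, or its reverse complement TGAGTCA.
Sbsn: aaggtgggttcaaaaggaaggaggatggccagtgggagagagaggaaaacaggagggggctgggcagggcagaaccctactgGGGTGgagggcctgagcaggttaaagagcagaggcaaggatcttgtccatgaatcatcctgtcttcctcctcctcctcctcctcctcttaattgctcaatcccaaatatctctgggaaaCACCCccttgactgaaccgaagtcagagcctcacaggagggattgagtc
Dmkn: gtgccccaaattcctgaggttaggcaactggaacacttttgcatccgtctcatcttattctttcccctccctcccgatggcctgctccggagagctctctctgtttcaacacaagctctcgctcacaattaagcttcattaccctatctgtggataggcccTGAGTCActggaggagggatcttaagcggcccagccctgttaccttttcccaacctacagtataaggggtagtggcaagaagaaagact
Krtdap: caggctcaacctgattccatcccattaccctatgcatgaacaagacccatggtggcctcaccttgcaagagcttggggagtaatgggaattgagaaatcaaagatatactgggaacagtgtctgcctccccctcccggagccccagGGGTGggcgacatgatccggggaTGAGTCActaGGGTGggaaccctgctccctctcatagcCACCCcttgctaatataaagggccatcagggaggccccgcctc
The *Sbsn* window held 2 CACCC matches and no AP-1 match, the *Dmkn* window shown 0 and 1, and the *Krtdap* window 3 and 1. The third *Dmkn* start, at chr7:30776155-30776404 and not shown, held 2 and 1, so all 3 genes had CACCC before at least 1 start. Of the 10 genes, 7 had a window in the table, the others being *Tgm2*, *Evpl* and *Ppl*, and 6 of the 7 held CACCC on either strand in at least 1 of their windows, with *Tgm5* the exception. CACCC was found for 54.5% of all genes with a window, and TGACTCA for 5.16%, so CACCC matches are common. The 2 motifs share no bases in these windows, and a match of letters does not show a bound site.

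*Cnfn* encodes cornifelin, a small protein built into the envelope. It read 13.05, 12.91 and 13.02 in animals labelled control and 12.91, 12.87 and 13.16 in those labelled mutant, with overlapping groups. Its difference was -0.014 ± 0.11 (log2, SE; 95% interval -0.27 to 0.24; adjusted p = 0.977), and its sign turned to 0.040 with quantile normalization and to 0.023 with each array centred on its median. *Tgm3*, *Cnfn*, *Dmkn* and *Krtdap* read between 12.60 and 13.37, in the upper range of arrays whose maxima were 13.99 to 14.67. The array can compress a difference there, which was not tested, and a small value is no evidence of equal expression. *Lce1c* read -0.89 from a control mean of 12.67, near that of *Dmkn* (12.68) and below those of *Krtdap*, *Cnfn* and *Tgm3*.

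Males and females of each genotype were compared as well. The *Evpl* difference was -1.39 between the 2 males and -0.85 between the means of the females, that of *Ppl* -0.62 and -0.30, and that of *Sbsn* -0.78 and -0.36. *Tgm2* went the other way, with -0.81 in males and -1.5 in females. The interaction of genotype and sex did not pass for any of the 10 genes (adjusted p of 0.862 for *Evpl* and 0.965 for *Sbsn*, the 2 smallest), and only 1 male per genotype was measured.

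**Figure D4:**
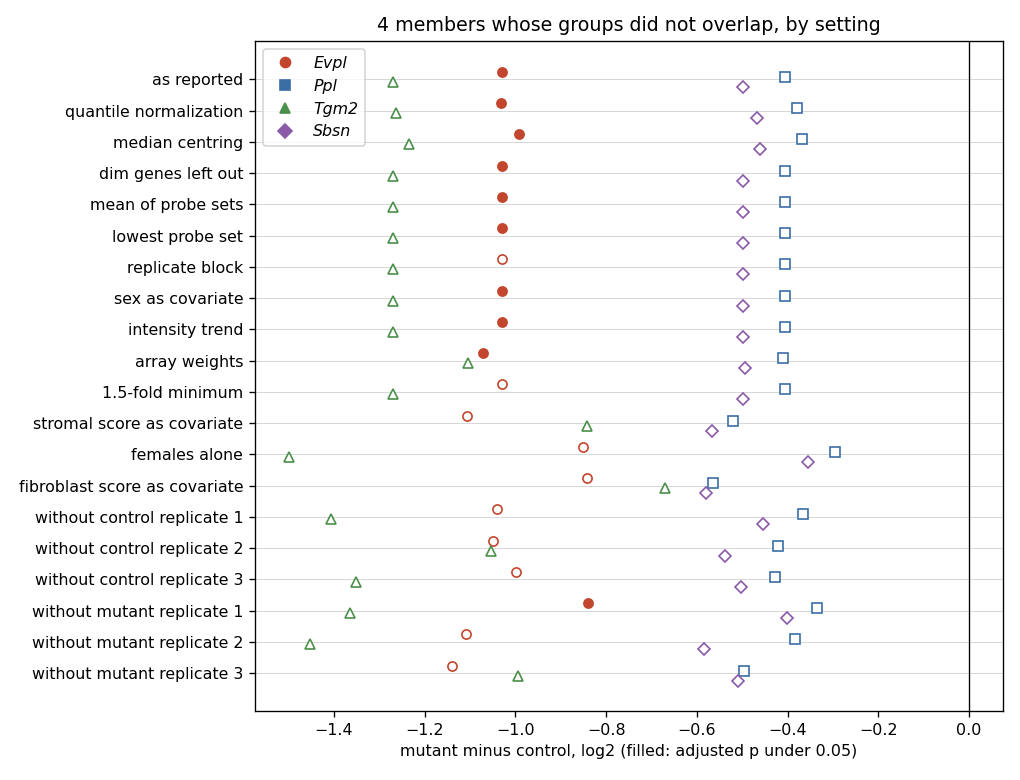
Difference of means (horizontal axis, log2) of *Evpl*, *Ppl*, *Tgm2* and *Sbsn* as reported and under the 19 alternatives (rows), filled where the adjusted p was under 0.05. All points lie below 0, *Evpl* is filled in 9 alternatives, and the other 3 genes are never filled. The rows without dim genes and with either probe set rule use the same *Evpl* values, so their fill is no further support.

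Other genes of the envelope were read from 6 lists by role, and 4 of 77 measured genes passed, 1 higher and 3 lower. That is 5.19%, beside 1.04% of all genes, and groups were separate for 31 of the 77, or 40.3%, beside 18.1% of all genes. The lists were written with earlier results of these data known, so these shares do not measure an enrichment, and none was tested. The 4 were all among the 25 measured proteins that transglutaminases crosslink, of which 21 did not pass (median -0.061). In that list 6 genes were under the dim limit, and *Flg*, *Sprr2a1* and *Stfa1* were not measured as single genes. *Hrnr*, encoding hornerin, fell by 2.07 ± 0.34, *Lce1a1* by 1.15 ± 0.17 and *Lce1c* by 0.89 ± 0.14, while *Sprr2d*, encoding a small proline-rich protein, rose by 4.43 ± 0.68 (log2, SE; adjusted p between 0.0265 and 0.0436). Near-identical relatives of *Lce1a1*, *Lce1c* and *Sprr2d* can share signal, so single values of these families are uncertain. The count of 4 fell to 1 or 2 without control 1, control 2, control 3, mutant 2 or mutant 3, and to 0 without mutant 1, where 26 of the 77 had an unadjusted p under 0.05. With the replicate number as a block the count was also 0, and 27 of the 77 had an unadjusted p under 0.05.

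None of the other 5 transglutaminase family genes passed (median 0.10), and 4 of them were under the dim limit. The coagulation factor gene *F13a1* was the brightest and read -0.57 ± 0.19 (adjusted p = 0.270). *Epb42*, an inactive relative that encodes an erythrocyte membrane protein, read 0.18 ± 0.15. None of 9 other plakins and plakin partners passed either, with 7 of 9 lower and a median of -0.15. The 2 with the smallest p were *Dst*, encoding a plakin of hemidesmosomes and other junctions, at -0.84 ± 0.22 (adjusted p = 0.148), and *Macf1*, encoding a linker of microtubules and actin, at -0.60 ± 0.18 (adjusted p = 0.201).

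**Figure D5:**
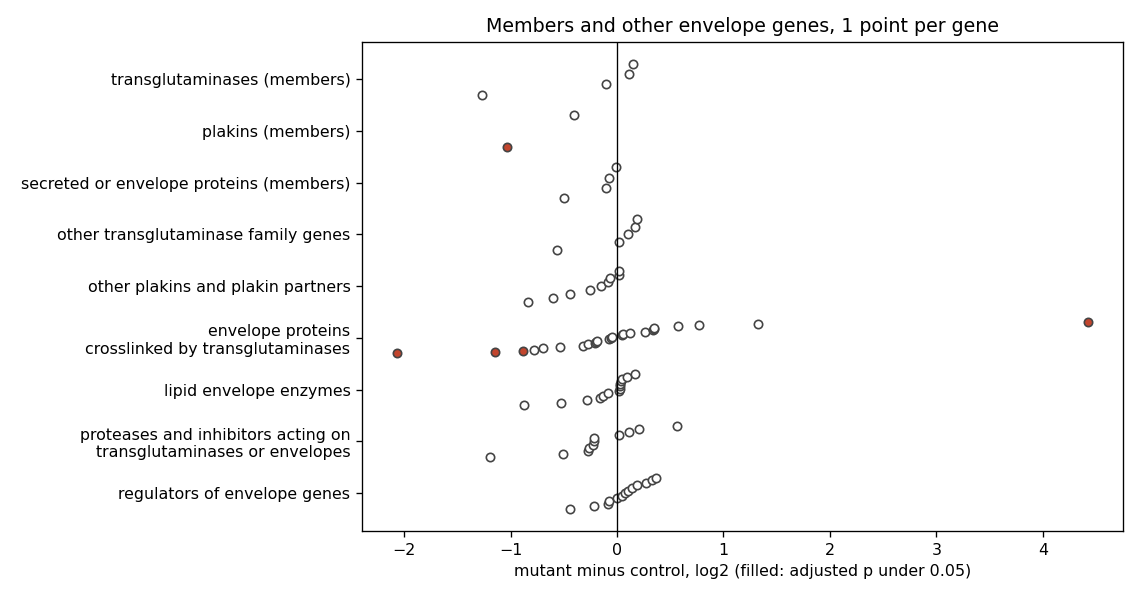
Difference of means (horizontal axis, log2) of every measured gene of the 3 classes of the set and of the 6 other lists, 1 point per gene, filled where the adjusted p was under 0.05. The filled points are *Evpl* at -1.03 among the plakins and 4 genes among the crosslinked envelope proteins, from -2.07 (*Hrnr*) to 4.43 (*Sprr2d*).

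Enzymes of the lipid layer that is bound to the envelope had a median of 0.025 over 14 genes, none passing. *Sdr9c7* and *Aloxe3*, which act on the linoleate chains of barrier ceramides, read -0.87 ± 0.16 (adjusted p = 0.0626) and -0.52 ± 0.13 (adjusted p = 0.143). Of 11 proteases and inhibitors that act on transglutaminases or on the envelope, 7 were lower and none passed (median -0.22). *Klk7*, a protease of the shedding cell surface, read -1.19 ± 0.32 (adjusted p = 0.161), and *Casp14*, a protease of cornifying cells, 0.57 ± 0.17 (adjusted p = 0.222). Of 13 regulators of envelope genes, the targeted *Klf4* among them, none passed (median 0.071). *Grhl3*, a factor of barrier formation, read -0.44 ± 0.13 (adjusted p = 0.213) and *Tfap2a* 0.33 ± 0.11 (adjusted p = 0.246).

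None of the nearest measured genes on either side of the 10, in annotation order, passed. On either side of *Evpl*, *Cdk3* read -0.12 ± 0.14 and *Srp68* -0.45 ± 0.15 (log2, SE; adjusted p = 0.803 and 0.272). Beside *Tgm2*, *Rprd1b* and *D630003M21Rik* read 0.082 and 0.14, beside *Ppl*, *Ubn1* and *Sec14l5* read 0.27 and -0.21, and beside the *Sbsn* cluster *Gapdhs* and *Ffar2* read 0.25 and -0.081. *Tinf2* and *Rabggta* beside *Tgm1* read 0.48 and 0.18, *Stk35* and *AU015228* beside *Tgm3* -0.031 and -0.035, *Tmem145* and *4732471J01Rik* beside *Cnfn* 0.083 and 0.24, and *Epb42* and *Tgm7* beside *Tgm5* 0.18 and 0.17. Outside the set, the neighbour difference farthest from 0 was that of *Tinf2* (adjusted p = 0.102).

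The genes whose course over the 6 arrays was most like that of *Evpl* were *Kif13b*, *Tspan15* and *Ankrd24*. Likeness was the root-mean-square difference of log2 values centred on each gene's mean, which was 0.10, 0.12 and 0.12. Their differences were -0.97 ± 0.16, -1.03 ± 0.21 and -0.90 ± 0.12 (log2, SE), of which *Kif13b* and *Ankrd24* passed (adjusted p = 0.0434 and 0.0173).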

How the data were processed

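Per the labels' protocols, 100 ng of esophageal RNA from each animal was primed with poly(T), amplified and given a biotin label. Values were deposited on a log2 scale, as judged from their range (array medians 5.01 to 5.13), for 28853 probe sets. Partek 6.4 is named per the submitters' processing notes. The sources used here do not give the background correction, normalization or genome build. Probe sets naming 1 gene (21789) were given current symbols through Entrez identifiers (21698 matched; assembly GRCm38.p6), and the brightest per gene was kept, leaving 19938 genes with no filter. Genotype was the only term of the limma 3.58.1 model (R 4.3.3, lmFit and eBayes, two-sided, 4 residual degrees of freedom, 7.58 after moderation). Ratios within arrays were tested by exact permutation (scipy 1.17.1). Plots used matplotlib 3.10.9 in Python 3.11.15.

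The genes, lists and tests were chosen with earlier results of these data known. The text names the 10 genes, *Klf4*, passing genes of each other list (up to 4, or the 2 with the smallest p), neighbours, and the 3 genes most like each passing one. Of 171 list entries, 163 matched. The model was first tested on simulated data. There it recovered 20% of 50 genes changed by 0.5 log2 and 94% of 50 genes changed by 1. Most changes of 0.5 were thus missed, and not passing is weak evidence against a change of that size. Protein features were planned and not analysed here.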

Additional observations from a re-analysis of the deposited data

How the results depend on the processing

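Alternatives were normalization, filters, probe set rules, covariates, moderation, array weights, a 1.5-fold minimum, the females alone and each array left out, and, chosen after seeing the data, the mean of the fibroblast markers as a covariate. *Evpl*, *Tgm2*, *Ppl*, *Sbsn*, *Dmkn*, *Krtdap* and *Tgm3* kept their sign in all 19. For these genes the difference is the same by construction without dim genes, with either probe set rule and with the replicate block. The same holds for sex as a covariate, an intensity trend and the 1.5-fold minimum, so the kept sign there is no further support. The fibroblast means of the groups did not overlap, so that covariate cannot be told apart from genotype. The number of genes passing in limma (207) was 370 with array weights, 83 in the females alone, 12 with the 1.5-fold minimum, 7 with the fibroblast mean and between 44 and 193 with an array left out. *Evpl* lost its call, leaving 0 of the 10 genes, with the stromal mean (-1.11; 4 of the 10 with an unadjusted p under 0.05), in the females alone (-0.85; 3 of 10), with the fibroblast mean (-0.84; 0 of 10) and with the 1.5-fold minimum (-1.03; 2 of 10). With an array left out its difference lay between -1.14 and -0.84, and 0 to 1 of the 10 genes passed. The 4 passing genes of the other lists became 7 with an intensity trend, 1 in the females alone, 1 with the fibroblast mean, 0 with the 1.5-fold minimum (6 with an unadjusted p under 0.05), and 0 to 2 with an array left out.

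The differences of *Tgm1*, *Tgm5* and *Cnfn* and 4 log ratios turned sign. *Tgm1* read -0.029 in the females alone and -0.14 with the fibroblast mean, and -0.045 to 0.30 with an array left out. *Tgm5* read 0.026 with the stromal mean, 0.32 with the fibroblast mean and -0.30 to 0.011 with an array left out. *Cnfn* read 0.040 with quantile normalization, 0.023 with median centring, 0.048 in the females alone and -0.10 to 0.039 with an array left out. Of the log ratios, *Krtdap* to *Dmkn* was 0.050 with quantile normalization, and with an array left out *Tgm1* to *Tgm5* lay between -0.0097 and 0.59, *Cnfn* to *Tgm1* between -0.26 and 0.066 and *Tgm1* to *Tgm3* between -0.26 and 0.17. The cause was not tested.

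The replicate number was also fitted as a block, though same-numbered arrays did not deviate together (correlations of -0.17, 0.090 and -0.10 over all genes). With the replicate block, 81 genes passed, 0 of the 10 genes (4 with an unadjusted p under 0.05; *Evpl* at -1.03, adjusted p = 0.0669) and 0 of the 77 others (27 with an unadjusted p under 0.05), and no array correlated best with its own number.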

Other observations

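The animals labelled mutant differed more among themselves than the controls for most of the set. The SD over 3 arrays was larger in the group labelled mutant for 8 of the 10 genes, the exceptions being *Dmkn* and *Krtdap*, and for 57.1% of all genes. For *Tgm1* the SD was 0.038 among controls and 0.34 among the arrays labelled mutant, for *Evpl* 0.055 and 0.33, and for *Tgm3* 0.022 and 0.13. Mutant 1, the male, gave the lowest value of the 3 for *Evpl*, *Ppl*, *Sbsn* and *Tgm3* and the highest for *Tgm1*. No test of the difference in spread was made.

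Among 10 macrophage and leukocyte markers, *Cd68*, which encodes a lysosomal membrane protein of macrophages, was the only 1 past the threshold. It read 6.79, 6.73 and 6.86 in animals labelled control and 7.58, 8.25 and 7.88 in those labelled mutant, a difference of 1.11 ± 0.17 (log2, SE; limma adjusted p = 0.0304). The list's median was -0.041 and 5 of its genes were under the dim limit. Of 12 columnar and glandular markers none passed (median -0.024), and 9 were under that limit.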
